A study of Mus musculus with 4 samples.

Results

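The genes described here are 9 components of the Nodal and BMP (bone morphogenetic protein) signalling pathways, followed in mouse embryonic stem cells (mESC) that had lost Ogt. They were chosen by symbol, and all 9 were found among the 25239 gene symbols of the 4 count tables: Nodal, Lefty1, Lefty2, Acvr2b, Smad7, Bmp4, Id1, Id2 and Id3. Ogt encodes O-GlcNAc transferase, which attaches N-acetylglucosamine to serine and threonine residues of proteins. The Ogt iKO group held 2 libraries of polyadenylated RNA from Ogt fl/fl mESC kept for 6 days in 4-hydroxytamoxifen (4-OHT), and the control group held 2 libraries from Ogt fl/fl mESC kept without it. Both groups grew with LIF and serum replacement on feeder fibroblasts treated with mitomycin C, and viable cells were sorted to leave the feeders out. Cells of the treated cultures were in addition selected for yellow fluorescent protein. That selection and the exposure to 4-OHT cannot be told apart from the loss of Ogt, since the labels describe no treated cells with Ogt intact. The labels number the libraries of each group without saying that they came from separate cultures, so p-values measure the spread between these libraries, which may be technical.

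Nodal is a secreted ligand of the TGF-β family that signals through activin receptors and SMAD2 and SMAD3. It switches on its own antagonists, Lefty1 and Lefty2, in a feedback loop that limits its range in the early embryo. BMP4 signals through SMAD1, SMAD5 and SMAD9 and induces the ID proteins, which hold back differentiation by binding E proteins and keeping them off DNA. In mESC, BMP-induced ID genes are known to help LIF sustain self-renewal, and Nodal signalling is active without being needed for it.

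Library totals ran from 14668489 to 16504204 counts, and 14525 genes were tested. Ogt was counted 437 and 389 times in the treated libraries and 2963 and 3108 times in the controls, 12.9% of the control level (edgeR quasi-likelihood test, Benjamini-Hochberg adjusted p = 2.49e-07). In all, 65.3% of tested genes passed an adjusted p under 0.05, 33.2% as higher and 32.0% as lower in Ogt iKO, and the libraries of the groups did not overlap for 83.2%. A call in either direction was therefore common. Levels are given as CPM (counts per 1000000 counts of the library, after scaling by the trimmed mean of M values, TMM). Scaling by library totals instead moved the median over all genes from 0.02 to 0.19 on the log2 scale and the share of calls that were higher from 50.9% to 65.1%, so changes are relative to the bulk of genes.

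The 10 stem cell markers summed to 2382 and 2702 CPM in Ogt iKO and to 4417 and 4411 CPM in control, and 9 of them were lower and 0 higher. Pou5f1 stood at 532 CPM ± 60.2 (SD, n = 2) in the treated libraries and 871 CPM ± 31.4 in the controls, Nanog at 87.7 against 242 CPM and Sox2 at 127 against 382 CPM. The sort used antibodies to CD326 (Epcam) and CD90.2 (Thy1). The labels name CD90.2 as the marker that picks out stem cells and CD326 as the one that excludes feeders, although Epcam is in general an epithelial and stem cell marker and Thy1 is found on fibroblasts, so which population each antibody selected is uncertain. Epcam was at 283 CPM in Ogt iKO and 327 CPM in control, and Thy1 at 17.2 and 15.6 CPM. None of the 14 fibroblast markers was at 0 in any library. They summed to 2657 CPM in Ogt iKO replicate 1 and 634 CPM in Ogt iKO replicate 2, with 1009 and 1156 CPM in the controls, so the controls lay between the treated libraries. Col1a1 had 15453 and 2785 counts in the treated libraries and 4549 and 4809 in the controls, and Col1a2 9465 and 2275 against 3287 and 3533. Of the fibroblast markers 3 were higher and 11 were not called. Other lineages moved as well: 3 of 4 tested mesendoderm markers, 4 of 6 primitive endoderm markers and 4 of 6 tested trophectoderm markers were higher, and 1 trophectoderm marker and 2 of 3 tested neuroectoderm markers were lower. The part of these marker changes in the results on the 9 genes was not tested. In these bulk libraries, fewer cells of a type and less RNA per cell cannot be told apart.

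Of the 9 genes, 2 were higher (Nodal, Id2) and 5 lower (Lefty1, Lefty2, Smad7, Id3, Acvr2b) in Ogt iKO, while Bmp4 and Id1 were not called. The ligand Nodal thus stood higher in the libraries where its antagonists Lefty1 and Lefty2 stood lower, and Id2 moved opposite to Id3. All 9 were tested. The 7 calls compare with 65.3% of all genes called, so the number of calls says nothing particular about these genes. The median log2 fold change of the 9 was -0.36, against 0.02 over all tested genes.

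**Figure D1:**
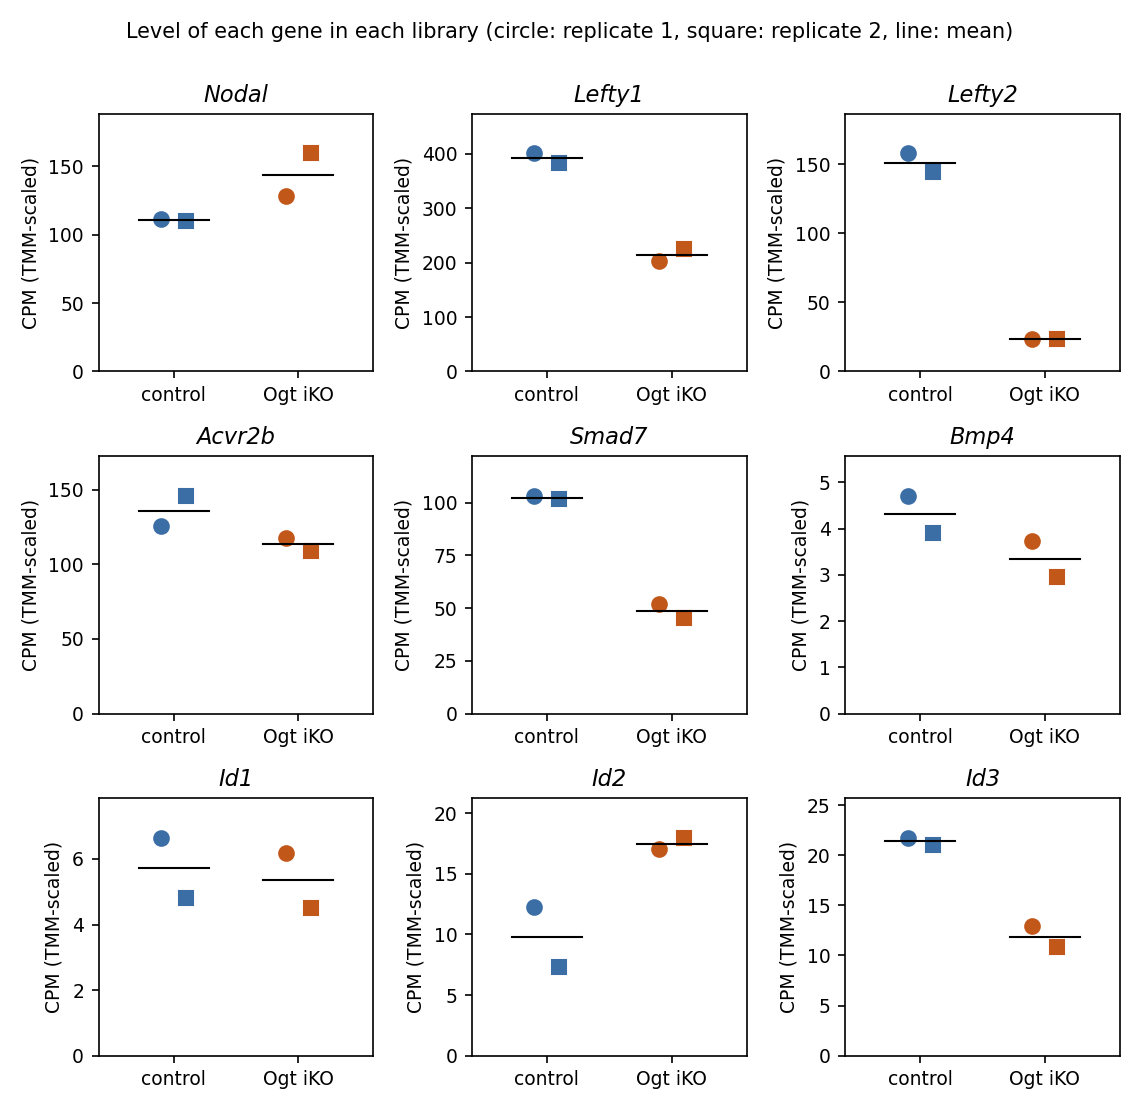
TMM-scaled CPM of each gene (y axis, from 0, scaled per panel) in the control and Ogt iKO libraries (x axis). Circles are replicate 1, squares replicate 2 and lines group means. Control and treated points are separate in each panel except that of Id1, and Lefty2 has the widest gap relative to its control level, at 145 to 158 CPM in control and 23.3 to 23.4 CPM in Ogt iKO.

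Nodal lies on chromosome 10 (chr10:61417972-61425338, plus strand, GRCm38) and has 3 exons. It had 2194 and 2472 counts in Ogt iKO replicates 1 and 2 and 1720 and 1683 in control replicates 1 and 2. That is 128 and 159 CPM against 111 and 109.7 CPM. Both treated libraries lay above both controls, which differed little from each other, and the treated libraries were spread more widely. The log2 fold change was 0.38 (SE 0.0949, adjusted p = 0.00725, edgeR), 130.2% of control. Without Ogt iKO replicate 2 the log2 fold change was 0.19 (adjusted p = 0.0376, edgeR), and without replicate 1 it was 0.54.

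The series is also about DNA methylation, which in mammals falls mainly on CG dinucleotides, so the sequences just upstream of both ligands are shown, with CG in capitals. Each is the 250 bases before the start of the gene, on the gene's strand, from RefSeq on GRCm38.p6 (Nodal chr10:61417722-61417971, plus strand, and Bmp4 chr14:46390670-46390919, minus strand).
Nodal: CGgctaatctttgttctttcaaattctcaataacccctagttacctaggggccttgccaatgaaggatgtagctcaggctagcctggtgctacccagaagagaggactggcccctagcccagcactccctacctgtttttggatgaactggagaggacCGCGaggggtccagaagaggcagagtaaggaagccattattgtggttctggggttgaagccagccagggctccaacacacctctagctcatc
Bmp4: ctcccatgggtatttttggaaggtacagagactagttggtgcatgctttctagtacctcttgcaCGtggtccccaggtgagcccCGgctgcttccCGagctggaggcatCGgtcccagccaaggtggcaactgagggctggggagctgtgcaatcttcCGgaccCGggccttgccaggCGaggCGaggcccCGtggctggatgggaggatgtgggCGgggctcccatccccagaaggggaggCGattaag
The Nodal window holds 3 CG dinucleotides and 53.2% G or C, and the Bmp4 window 11 and 63.2%, where the median of 32851 such windows is 6 CG. Methylation was not measured in these libraries. RefSeq windows were matched for 5 of the 9 genes (Nodal, Acvr2b, Bmp4, Id2, Id3), and those of Id2 and Id3 hold 18 CG each and that of Acvr2b 24. These 3 windows are not purely upstream sequence: GENCODE exons cover 250 of the 250 bases for Id3, 161 for Id2 and 60 for Acvr2b, whereas they cover 0 for Nodal and Bmp4. The SMAD box CAGAC (either strand) occurs in 42.2% of all windows, and here 2 times in Id3, 1 time in Acvr2b and in neither Nodal, Bmp4 nor Id2. The GC-rich SMAD element GGCGCC occurs in 9.59% of windows and 1 time in Id2. The FOXH1 motif AATNNACA (either strand), found in 10.9% of windows, occurs in none of the 5. These matches describe letters, not sites in use.

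Lefty1 and Lefty2 encode secreted antagonists that block Nodal from its receptors, and both are standard readouts of Nodal signalling in mESC. They sit near each other on chromosome 1 (Lefty1 chr1:180935022-180938400 and Lefty2 chr1:180893108-180899103, both plus strand, 4 exons each). Lefty1 had 3475 and 3484 counts in the treated libraries and 6210 and 5882 in the controls, or 203 and 224 CPM against 401 and 383 CPM. Both treated libraries were below both controls, and the log2 fold change, -0.88 with an SE of 0.0660, had an adjusted p of 1.24e-05 (edgeR), 54.5% of control.

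Lefty2 fell much further. It had 399 and 363 counts in the treated libraries and 2446 and 2222 in the controls, or 23.3 and 23.4 CPM against 158 and 145 CPM. The treated libraries were nearly equal and far below the controls. Its log2 fold change was -2.70 (SE 0.0764, adjusted p = 2.49e-07, edgeR), so that 15.4% of the control level was left.

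Lefty1 and Lefty2 are near-copies, so their reads must be told apart by the bases at which they differ. Their coding sequences are each 1107 bases long and are 91.9% identical, with 90 differing positions. The 60-base stretch with the most differences, within the coding sequence from base 34 to base 93 of each, is shown with the 18 differing bases in capitals (Lefty1 chr1:180935143-180935202 and Lefty2 chr1:180893217-180893276, GENCODE transcripts on GRCm38).
Lefty1: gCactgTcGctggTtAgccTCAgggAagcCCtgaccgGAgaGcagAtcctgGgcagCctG
Lefty2: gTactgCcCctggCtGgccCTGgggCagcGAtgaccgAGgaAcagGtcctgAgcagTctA
Elsewhere the longest stretch identical in both is 140 bases. How reads that fit both genes were counted is not given in the sources used here, so the split between Lefty1 and Lefty2 is less certain than their sum. The sum was 226 and 248 CPM in Ogt iKO against 559 and 528 CPM in control, 43.6% of control. Lefty2 made up 10.3% (95% Clopper-Pearson interval 9.36 to 11.3%) and 9.44% (8.53 to 10.4%) of the counts of both genes in the treated libraries. In the controls it made up 28.3% (27.3 to 29.2%) and 27.4% (26.4 to 28.4%). These intervals cover counting error only. The share does not depend on how libraries are scaled, and it was lower in both treated libraries. An exact permutation test of 2 libraries against 2 cannot give a two-sided p below 0.333, which is the value for this share.

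Set against its antagonists, Nodal had 0.566 and 0.643 counts per count of Lefty1 plus Lefty2 in Ogt iKO and 0.199 and 0.208 in control. The ratio was 2.97 times higher in the treated libraries (exact permutation p = 0.333, the smallest possible). On levels per kb of exon, the ratio of Nodal to the summed Lefty genes was 0.484 ± 0.0421 (SD, n = 2) in Ogt iKO and 0.174 ± 0.00503 in control.

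**Figure D2:**
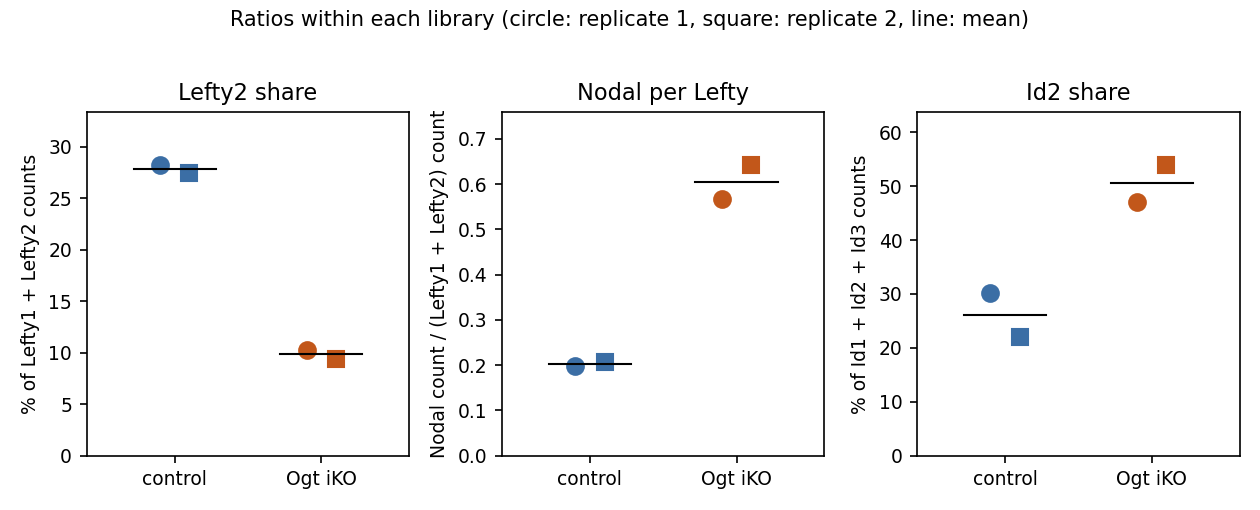
Ratios of counts within each library, control and Ogt iKO on the x axis, for Lefty2 as a percentage of Lefty1 plus Lefty2, Nodal per Lefty count, and Id2 as a percentage of the 3 Id genes. Circles are replicate 1, squares replicate 2 and lines group means. Lefty2 drops from 27.8% to 9.87% on average, and the ratio of Nodal to Lefty and the share of Id2 are higher in both treated libraries.

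Acvr2b, on chromosome 9 (chr9:119402118-119434995, 10 exon blocks), encodes an activin type II receptor that binds Nodal and several BMPs. It had 2018 and 1692 counts in the treated libraries and 1948 and 2242 in the controls, or 118 and 109.0 CPM against 126 and 146 CPM. The groups did not overlap, but the gap between the nearest libraries was smaller than the spread of the controls. Its log2 fold change, -0.26 with an SE of 0.0815 and an adjusted p of 0.0208 (edgeR), is the smallest of the 7 calls. The call was lost without control replicate 2 (-0.16, adjusted p = 0.155, edgeR) and when libraries were scaled by their totals (-0.09, adjusted p = 0.370, edgeR).

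Smad7, on chromosome 18 (chr18:75367529-75395935, 5 exon blocks), encodes an inhibitory SMAD that is induced by TGF-β family signals and blocks their receptors. It had 886 and 701 counts in the treated libraries and 1601 and 1558 in the controls, or 51.8 and 45.2 CPM against 103 and 101.5 CPM. Both treated libraries held less than either control. The log2 fold change was -1.08 (SE 0.0818, adjusted p = 1.28e-05, edgeR), 47.4% of control. Smad7 and both Lefty genes kept their calls in each of the 13 alternative settings tried.

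Bmp4, on chromosome 14 (chr14:46383520-46390669, minus strand, 4 exon blocks), was scarce. Its counts were 64 and 46 in Ogt iKO and 73 and 60 in control, or 3.74 and 2.96 CPM against 4.71 and 3.91 CPM. The treated libraries lay just below the controls, by less than the spread within either group. The log2 fold change was -0.36 with a 95% interval from -0.88 to 0.16 (adjusted p = 0.195, edgeR), so a change was not detectable at this depth. Of its exon length, 4.31% lies under an exon of Gm15217 on the opposite strand, whose reads could be counted with it if strand was not used.

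Id1, Id2 and Id3 are small helix-loop-helix proteins without a DNA-binding region, and are classical targets of BMP signalling. Id1 (chr2:152736251-152737410, 1 exon block) had 106 and 70 counts in the treated libraries and 103 and 74 in the controls, or 6.19 and 4.51 CPM against 6.65 and 4.82 CPM. Replicate 1 was the higher library in both groups, and the groups overlapped. The log2 fold change was -0.10 with a 95% interval from -0.64 to 0.45 (adjusted p = 0.738, edgeR), and its sign turned on library totals (0.07).

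Id2 (chr12:25093799-25097140, minus strand, 3 exon blocks) had 291 and 279 counts in the treated libraries and 190 and 112 in the controls. That is 17.01 and 17.97 CPM against 12.3 and 7.30 CPM. The treated libraries were close to each other and above both controls, which were further apart. The log2 fold change was 0.84 (SE 0.214, adjusted p = 0.00818, edgeR), 179% of control. It was 0.50 (adjusted p = 0.0351) without control replicate 2 and 1.25 (adjusted p = 0.000628) without control replicate 1 in the same test.

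Id3 (chr4:136143497-136145755, 3 exon blocks) had 221 and 168 counts in the treated libraries and 337 and 323 in the controls, or 12.9 and 10.8 CPM against 21.8 and 21.05 CPM. Both treated libraries lay well under both controls. The log2 fold change was -0.85 (SE 0.129, adjusted p = 0.000516, edgeR), 55.6% of control.

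The summed level of the 3 Id genes hid these opposite moves. It was 36.1 and 33.3 CPM in Ogt iKO and 40.7 and 33.2 CPM in control, so the groups overlapped (exact permutation p = 1, n = 2 a group). Within that sum, Id2 took 47.1% and 54.0% of the counts in the treated libraries and 30.2% and 22.0% in the controls. Counts of Id3 per count of Id2 were 0.759 and 0.602 in Ogt iKO and 1.77 and 2.88 in control. The Id genes are distant relatives, with coding sequences 49.6 to 56.6% identical and no identical stretch over 15 bases.

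Ogt iKO replicate 1 was the library with the highest sum of fibroblast markers, and fibroblasts are known to express Id genes. Without that library the log2 fold changes were -0.98 for Id3, 0.88 for Id2, -0.53 for Bmp4 and -0.34 for Id1, and all 7 calls were still made. That fit holds 1 treated library, assumed to vary like the controls, and its fibroblast markers summed to less than those of either control, although Pdgfrb, Twist1 and Lox, the 3 called higher and named after their values were seen, still stood above both controls in it. The part of feeder RNA in these results was not tested.

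**Figure D3:**
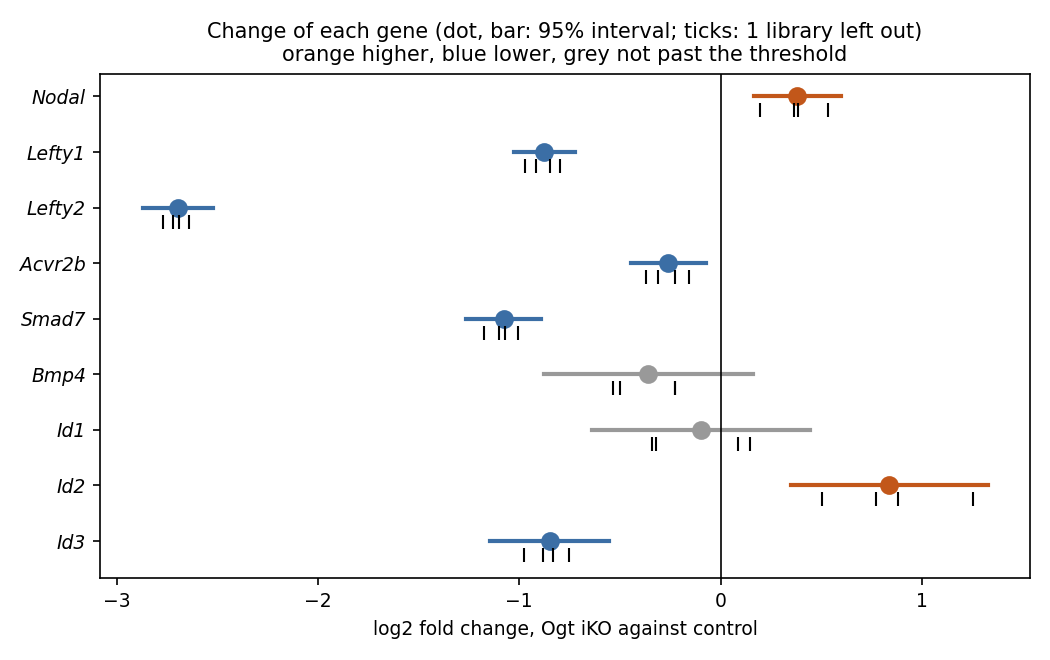
Log2 fold change of each gene in Ogt iKO against control (x axis), with its 95% interval as a bar and, as black ticks below it, the values with 1 library left out. Lefty2 is furthest from 0 at -2.70, the intervals of Bmp4 and Id1 cross 0, and the ticks of Id1 fall on both sides of it.

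Per kb of exon, the order of levels in control was Lefty1 (242 CPM per kb), Lefty2 (61.2), Nodal (52.7), Acvr2b (38.0), Smad7 (23.4), Id3 (16.7), Id1 (4.95), Id2 (4.01) and Bmp4 (2.09). Id1 and Id2 overlapped there, and the other neighbours did not. In Ogt iKO it was Lefty1 (132 CPM per kb), Nodal (68.6), Acvr2b (31.8), Smad7 (11.1), Lefty2 (9.44), Id3 (9.29), Id2 (7.17), Id1 (4.61) and Bmp4 (1.62), with Lefty2 and Id3 overlapping. The order of Id3 and Id2 there depends on the exon length, since Id2 ranked 6 and Id3 ranked 7 with the exons of all annotated transcripts. Lefty2 dropped from rank 2 to rank 5, below the ligand it antagonises.

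The other genes of the pathways were taken from lists by role, 78 genes of which 70 were tested. Of these, 36 (51.4%) were higher and 11 (15.7%) lower, beside 33.2% and 32.0% of all genes, with a median log2 fold change of 0.50 against 0.02. DESeq2 called 23 of 71 pathway genes (32.4%) higher and 11 (15.5%) lower, beside 22.2% and 25.6% of all 15631 genes it gave an adjusted p. Of the 78, 8 also serve as stem cell or lineage markers, among them Tdgf1, Eomes and Gata3.

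On the Nodal side the genes moved in both directions. Of 9 tested ligands, cofactors and convertases 3 were higher and 3 lower. Tdgf1, the Cripto co-receptor that Nodal needs, fell from 1213 CPM ± 12.8 (SD, n = 2) to 553 CPM ± 71.0 (log2 fold change -1.13, adjusted p = 1.19e-05, edgeR). Log2 fold changes were 0.85 for Furin, a convertase that cleaves the Nodal precursor, and -0.38 for the ligand Gdf3, whose call was lost on library totals. Inhbb, an activin subunit, had 151 and 48 counts in the treated libraries and 409 and 427 in the controls, and a log2 fold change of -2.17 that edgeR's robust estimate of the spread did not call (adjusted p = 0.0797). It was -3.12 without Ogt iKO replicate 1 and -1.64 without Ogt iKO replicate 2.

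Of 5 tested receptors, Acvr2a (1.07), a second type II receptor gene, and the co-receptor gene Tgfbr3 (1.04) rose on the log2 scale, and the TGF-β receptor gene Tgfbr1 fell (-0.68). Acvr1b, a type I receptor for Nodal, was not called (-0.14, and 0.03 on library totals). Among the transducers, Foxh1, the DNA-binding partner of SMAD2, fell (-0.81) and Smad3 rose (0.59). Smad2 (-0.11, and 0.06 on library totals) and Trim33 (0.10) did not pass the threshold, but Trim33 was called higher on library totals (0.27, adjusted p = 0.00632, edgeR).

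Of 11 tested inhibitors of this branch other than the Lefty genes and Smad7, 3 were higher, 2 lower and 6 not called. Fst, which encodes the activin trap follistatin, rose from 7.39 CPM ± 0.779 (SD, n = 2) to 33.8 CPM ± 2.45 (log2 fold change 2.19, adjusted p = 3.52e-06, edgeR), Skil by 0.35 and Pmepa1 by 0.50, while Smurf1 fell by 0.82. The call of Pmepa1 was lost without Ogt iKO replicate 1 (0.23, adjusted p = 0.0970, edgeR) and without control replicate 1 (0.43, adjusted p = 0.0789, edgeR). The mesendoderm genes Eomes and Foxa2, which Nodal induces in the embryo, rose by 1.23 and 2.64, from 142 and 119 to 340 and 306 counts and from 6 and 4 to 33 and 34 counts. Mixl1 had a log2 fold change of 0.83 that DESeq2 did not call (adjusted p = 0.300) and that was not called without Ogt iKO replicate 2 (0.60) or either control library (0.78 and 0.87). T, the brachyury gene, was not called (0.50) except on library totals (0.67, adjusted p = 0.0364, edgeR). Genes that respond to Nodal therefore included both lower ones (Lefty1, Lefty2, Smad7) and higher ones (Eomes, Foxa2).

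On the BMP side most genes that changed were higher. Of 7 tested ligands other than Bmp4, 6 were higher and 0 lower, beside 33.2% and 32.0% of all tested genes. Bmp7 rose from 8.88 to 17.4 CPM (log2 fold change 0.97, SE 0.134, adjusted p = 0.000299, edgeR). The others were rare: Bmp2 had 53 and 35 counts against 16 and 18, Gdf6 18 and 15 against 2 and 4, and Bmp5 37 and 24 against 4 and 0. Bmp8a had 33 and 32 counts against 14 and 20, and Bmp8b 51 and 57 against 30 and 35. Both passed only narrowly, with adjusted p values of 0.0380 and 0.0471 (edgeR). Of 5 receptor genes 4 were higher. Bmpr2 rose by 1.30, Acvr1 by 0.93 and Bmpr1a by 0.45 on the log2 scale, with adjusted p values from 3.88e-05 to 0.000408 (edgeR), and Bmpr1b by 1.07.

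The SMADs of the BMP branch rose, with log2 fold changes of 0.48 for Smad5, 0.32 for Smad1 and 1.26 for the rarer Smad9, while the cofactor Zfp423 fell by 0.23. Of 8 tested inhibitors 3 were higher and 1 lower. Chordin, a secreted BMP trap encoded by Chrd, had 248 and 190 counts against 33 and 37 (log2 fold change 2.56), and its relative Chrdl1 150 and 126 against 19 and 11 (3.11). Bmper rose by 1.44, a call lost without Ogt iKO replicate 1 (0.86) and without control replicate 1 (1.25). The inhibitory Smad6 fell by 0.69, a call lost without control replicate 2 (-0.54, adjusted p = 0.0748, edgeR). The call of Smad1 was lost without Ogt iKO replicate 2 (0.25) and without control replicate 1 (0.24), and that of Zfp423 without control replicate 2 (-0.20) and on library totals (-0.06). DESeq2 did not call Gdf6, Bmp2, Bmpr1b, Smad1, Smad9 or Bmper.

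Of 8 tested BMP targets outside the 9 genes, 6 were higher and 1 lower. Gata3 (log2 fold change 2.36), Msx2 (1.77) and Gata2 (1.10) rose, and Dusp9, a phosphatase gene that BMP4 maintains in mESC, fell from 169 to 77.0 CPM (-1.13, adjusted p = 1.18e-05, edgeR). Id4, the remaining Id gene, named after its values were seen as the target not called, had a log2 fold change of 0.03. Targets of the BMP branch were thus not uniform either, with Id3 and Dusp9 lower and Id2, Gata2, Gata3 and Msx2 higher. The E-protein genes whose products the ID proteins bind were split, with log2 fold changes of -0.81 for Tcf3, 0.65 for Tcf12 and 0.29 for Tcf4. The call of Tcf4 was lost without Ogt iKO replicate 1 (0.15, adjusted p = 0.169, edgeR) and without control replicate 1 (0.22, adjusted p = 0.164, edgeR). Of the trophectoderm markers, Gata3 itself among them, 4 of 6 tested rose and 1 fell in the same libraries, and 4 of 6 primitive endoderm markers rose. Their part in the rise of Gata2, Gata3, Msx2 and the BMP ligands was not tested.

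**Figure D4:**
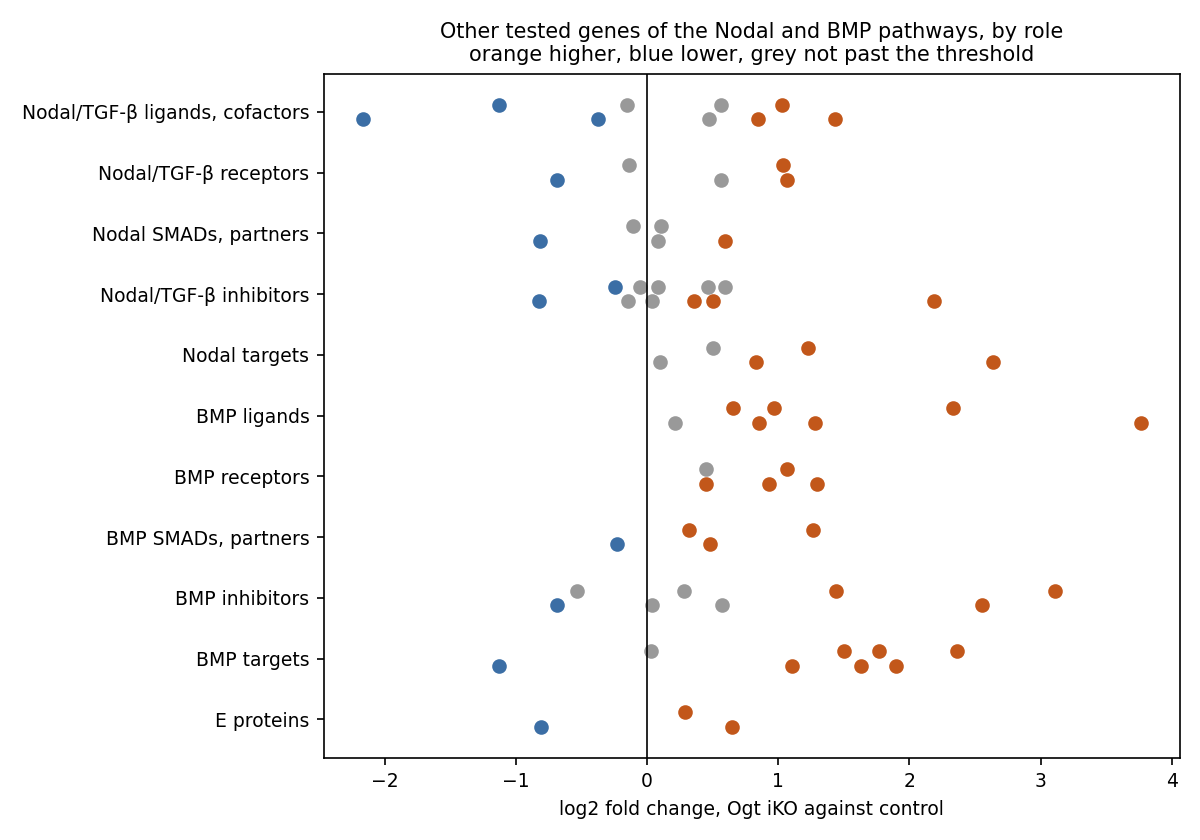
Log2 fold change in Ogt iKO against control (x axis) of the 70 other tested pathway genes, 1 dot a gene, in rows by role. Orange dots passed the threshold as higher, blue as lower, and grey did not pass. Dots of BMP ligands and receptors lie to the right of 0, while the Nodal rows hold dots on both sides.

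The nearest tested gene on each side of each of the 9 was read as well. Of these 17 flanking genes, 3 were higher, 10 lower and 4 not called, beside 33.2% higher and 32.0% lower of all tested genes. In 7 of the 14 pairs of a called gene and a flanking gene, both had the same call. Whether neighbours moved together was not tested. Log2 fold changes were -0.16 for Sde2, before Lefty2, and -0.22 for Tmem63a, after Lefty1, the latter not called. Gm20544, 441 bases before Smad7, fell with it (-1.32, adjusted p = 0.000217, edgeR). Nodal rose between a pair of genes that were lower, Pald1 (-0.56) and Eif4ebp2 (-0.24).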

How the data were processed

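PolyA RNA was sequenced from 2 Ogt iKO and 2 control libraries. The authors deposited unnormalized counts per gene symbol, 1 table a library. STAR, Picard and mm10 are named in the submitters' processing notes, and versions, annotation, the strand counted and the handling of reads that fit several genes are not given in the sources used here. Genes kept by filterByExpr were tested with edgeR 4.0.16 (R 4.3.3, TMM factors, quasi-likelihood test), with Benjamini-Hochberg adjustment over all 14525 genes. Alternatives were other scalings, filters and dispersions, DESeq2 1.42.0, a replicate block, an adjusted p under 0.01, and leaving out each library. Exon lengths (union of GENCODE M21 basic exons, GRCm38) gave CPM per kb. A count of 3, the floor, is 0.182 to 0.205 CPM. The members and lists were chosen with earlier results of these data known. Named besides the 9 genes and Ogt are up to 4 genes per role list with the smallest adjusted p, 7 markers and the genes nearest to Nodal and Bmp4 in pattern. Id4, Bmp8a, Bmp8b, Pdgfrb, Twist1, Lox and the flanking genes fall outside that rule and were named after their values were seen. A result on a neighbouring gene is not reported here.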

Additional observations from a re-analysis of the deposited data

How the results depend on the processing

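Lefty1, Lefty2, Smad7, Nodal, Id2 and Id3 kept their direction and their call in all 13 alternative settings, and Bmp4 was called in none. Scaling by library totals took Acvr2b to -0.0911, Id1 to 0.074, the log2 ratio of the summed Lefty genes from -1.20 to -1.03 and that of the summed Id genes from -0.09 to 0.0807, and it turned the sign of Acvr1b (0.0291) and Smad2 (0.0638). At an adjusted p under 0.01 Acvr2b (-0.26) was not called. With 1 library left out, Acvr2b ranged from -0.37 to -0.16 and Id1 from -0.34 to 0.15, including 0.09 without Ogt iKO replicate 2. DESeq2 called 23 other pathway genes higher in place of 36, and 47.8% of all genes in place of 65.3%. The cause of these shifts was not tested. The groups share replicate numbers, but same-numbered libraries deviated together only weakly (correlation 0.0859 over 14525 genes), so the numbers were not taken to pair them. With the replicate block, 2 of the 9 genes were higher and 5 lower, Nodal stood at 0.37, and 37 other pathway genes were higher and 11 lower. Counts of 46 to 106 for Bmp4 and Id1 limit what could be detected there.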

Other observations

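Over the 4 libraries, the genes whose centred log2 CPM lay nearest to that of Nodal were Bcat2, Ppp1r3b and Ckap2 (Euclidean distances 0.0422, 0.0489 and 0.0593), and 283 of 11385 genes lay within 0.2. For Bmp4 they were Oat, Akap17b and Cpn1 (0.0530, 0.0635 and 0.0648), with 119 of 11386 genes within 0.2. With 2 groups of 2 libraries, many genes share such a pattern.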
